A study of Mus musculus with 6 samples.

Results

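Ccl2, Ccl7, Ccl8 and Ccl12 are the 4 chemokine genes followed here, chosen by their symbols among the 38293 gene identifiers of the count tables. All 4 symbols matched 1 gene each. Their mRNA was counted as unique molecular identifiers (UMIs, 1 per captured mRNA molecule) in single CD11b+ cells of the mouse spinal cord. The cells came from C57BL/6 mice 10 weeks old, healthy or with experimental autoimmune encephalomyelitis (EAE) at disease onset. EAE was of the MOG35-55 type, in which immune cells primed against a myelin peptide attack the cord, and serves to model multiple sclerosis. Live cells were loaded with 10 µM DCFDA, a dye that fluoresces when oxidised by reactive oxygen species (ROS), and CD11b+ cells were sorted by that fluorescence. The 3 groups were healthy ROS-, EAE ROS- and EAE ROS+, with 2 libraries each. No group carried an engineered allele or a drug, and all cells passed through collagenase digestion for 30 min at 37 °C. The labels do not say whether replicates came from separate animals or pools, so p-values measure only the spread between these libraries.

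The members encode small secreted attractants of the monocyte chemoattractant family. Ccl2 (MCP-1), Ccl7 (MCP-3) and Ccl12 (MCP-5) act on CCR2, the receptor with which Ly6C-high monocytes leave the bone marrow and enter inflamed tissue, and mice lacking CCR2 are largely protected from EAE. Mouse Ccl8 (MCP-2) is known mainly as a ligand of CCR8. These genes are induced by NF-kB and interferon signals, and in the inflamed central nervous system Ccl2 is known from astrocytes, microglia and infiltrating myeloid cells.

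In the GENCODE M21 annotation of GRCm38 (mm10) the 4 genes lay on the plus strand of chromosome 11, within 81.2 kb, and each was a protein-coding gene of 3 exons. Ccl2 (ENSMUSG00000035385) spanned chr11:82035571-82037453 and Ccl7 (ENSMUSG00000035373) chr11:82045712-82047525. Ccl12 (ENSMUSG00000035352) spanned chr11:82101845-82103400 and Ccl8 (ENSMUSG00000009185) chr11:82115185-82116799. Ccl11, the eotaxin gene, lay between Ccl7 and Ccl12. The coding sequences were 49.8% to 67.0% identical between members, with Ccl7 and Ccl8 the closest pair. The libraries read the 3' end of a transcript, and there no run longer than 13 bases was shared between any pair of members over the last 400 bases.

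The 250 bases before the start of Ccl12 and Ccl8, the 2 members found in the RefSeq promoter table (GRCm38.p6, plus strand), are printed because Ccl12 had the largest difference between classes and Ccl8, its neighbour, was rare in all of them, while both windows held the same words at nearly the same distance from the start. Capitals mark the 3 runs of 8 bases, the longest these windows had in common: GGAAATCA, TCAGCATA and the TATA-box word TATAAAAG.
Ccl12, chr11:82101595-82101844: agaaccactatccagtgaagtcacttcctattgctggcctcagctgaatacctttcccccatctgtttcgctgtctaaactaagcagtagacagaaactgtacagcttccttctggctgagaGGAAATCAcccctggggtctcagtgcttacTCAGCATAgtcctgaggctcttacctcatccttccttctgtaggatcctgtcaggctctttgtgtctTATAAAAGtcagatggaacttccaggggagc
Ccl8, chr11:82114935-82115184: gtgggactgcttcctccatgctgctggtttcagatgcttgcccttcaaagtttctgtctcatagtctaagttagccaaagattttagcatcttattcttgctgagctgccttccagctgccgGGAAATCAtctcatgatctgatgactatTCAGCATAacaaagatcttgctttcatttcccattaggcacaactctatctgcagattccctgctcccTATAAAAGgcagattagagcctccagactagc
GGAAATCA covered bases 128 to 121 before the start in both windows, and TATAAAAG bases 31 to 24 in Ccl12 and 32 to 25 in Ccl8. TCAGCATA covered bases 98 to 91 in Ccl12 and 100 to 93 in Ccl8. Searched on both strands, GGAAATCA occurred in 0.983% of 32851 promoter windows of this length, TCAGCATA in 0.481% and TATAAAAG in 1.51%. The NF-kB word GGGNNNNNCC, found in 45.8% of windows, and the AP-1 word TGAGTCA, found in 4.46%, were in neither. The aligned windows were 57.5% identical, and these matches are a description of the sequence only.

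The 6 libraries held 9079 barcodes, of which 9078 were kept, against 8701 cells stated in the study's design. Kept cells per library numbered 202 to 2233 and total UMIs 915197 to 23407825, with healthy replicate 2 the smallest on both. Cells were classed by the UMIs of marker lists that hold none of the 4 chemokines. Microglial cells were 99.7% and 88.6% of the healthy libraries, 32.2% and 15.3% of EAE ROS- and 1.55% and 0.896% of EAE ROS+ (27 and 20 cells). Monocyte-derived cells were 39.8% and 64.8% of EAE ROS- and 87.6% and 95.2% of EAE ROS+, and none was found in healthy libraries (exact 95% upper limits 0.210% and 1.81%). Dendritic cells were summed only in EAE ROS- (45 and 77 cells), since EAE ROS+ held 2 and 4. Cells with both marker sets (47 to 258 per EAE library), whose median depth of 11578 to 15849.5 UMIs was above that of either class, were kept apart. Libraries shared 0 to 7 barcodes per pair. Healthy replicate 2 stood apart by endothelial markers, at 1011 counts per 1000000 UMIs (CPM) against 26.9 to 131 elsewhere.

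Ccl2 and Ccl12 were found in the microglia of every library, and both, with Ccl7, were higher in microglia from EAE than from healthy cord. In healthy microglia Ccl2 stood at 154 and 49.3 CPM. EAE ROS- microglia held 1011 and 1612 CPM of Ccl2, and EAE ROS+ microglia 966 and 1800 CPM. Every EAE library was above both healthy ones, and the 2 gates overlapped. Group means were 102 ± 74.3 CPM in healthy, 1311 ± 425 in EAE ROS- and 1383 ± 590 in EAE ROS+ (SD, n = 2 each).

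Ccl12 was already present in healthy microglia, at 464 and 286 CPM. It reached 1436 and 1972 CPM in EAE ROS- microglia and 1432 and 1823 CPM in EAE ROS+ microglia. No EAE library overlapped a healthy one. The means were 375 ± 126, 1704 ± 379 and 1628 ± 277 CPM (SD, n = 2 each) for healthy, EAE ROS- and EAE ROS+.

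Ccl7 was close to absent in healthy microglia, with 22 UMIs (4.97 CPM) in replicate 1, 13 of them in a single cell, and 0 in replicate 2. A count of 0 there allows up to 4.23 CPM. In EAE ROS- microglia Ccl7 stood at 115 and 197 CPM, and in EAE ROS+ microglia at 103 and 46.2 CPM, the last from 6 UMIs. The EAE libraries were again all above both healthy ones. Ccl8 had no UMI in healthy microglia, 37 UMIs (9.05 CPM) in EAE ROS- replicate 1 and 1 UMI (0.793 CPM) in replicate 2. The 47 EAE ROS+ microglia held none, which at their depth allows 10.7 and 23.1 CPM.

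**Figure D1:**
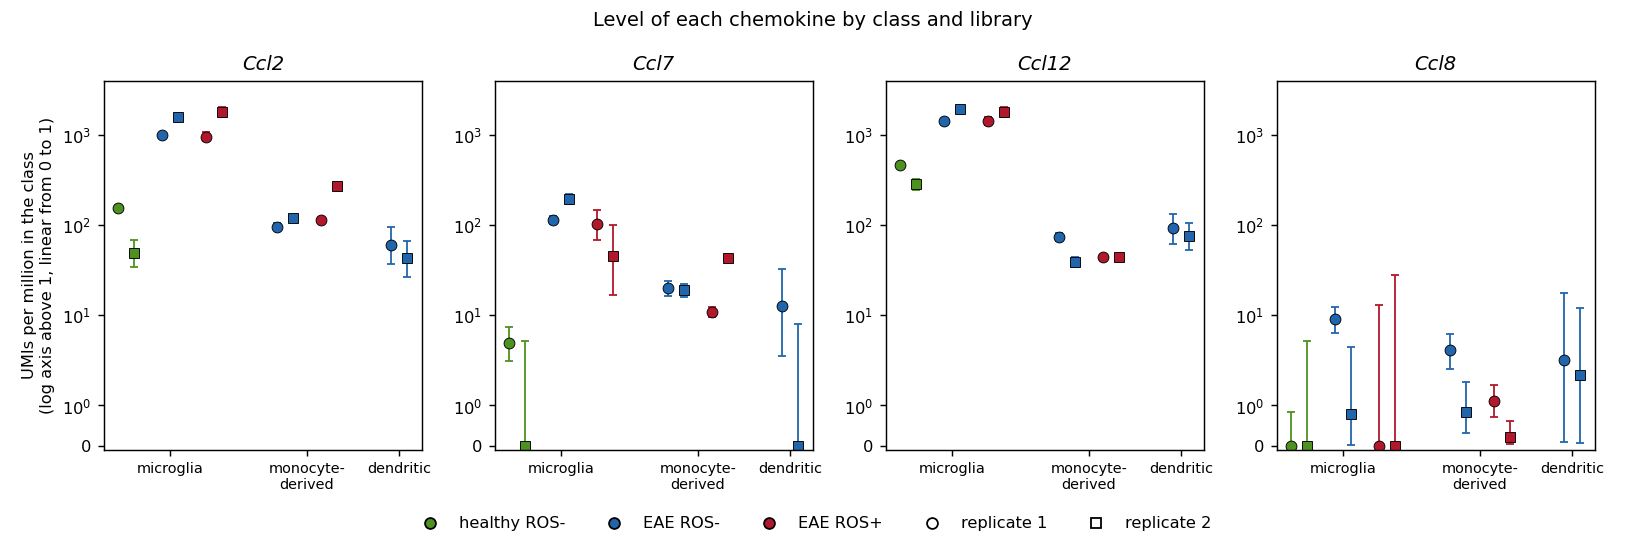
Level of each chemokine (UMIs per 1000000, CPM, on an axis that is logarithmic above 1 and linear from 0 to 1) in each library for microglia, monocyte-derived cells and dendritic cells. Circles and squares are replicates 1 and 2, colours are groups and bars are exact 95% counting intervals. Ccl2 and Ccl12 in EAE microglia sit between 966 and 1972 CPM, above all healthy microglia and both other classes.

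All 3 members with enough UMIs to test rose in EAE ROS- microglia against healthy microglia (edgeR quasi-likelihood test, Benjamini-Hochberg over 8587 genes, threshold 0.05), where 16% of the genes tested were called higher. Ccl2 rose 13.8-fold (log2 difference 3.79 ± 0.38 SE, adjusted p = 9.2e-08). Ccl12 rose 5.13-fold (2.36 ± 0.27 SE, adjusted p = 6.6e-07). Ccl7 rose 42.8-fold (5.42 ± 0.43 SE, adjusted p = 3.3e-09), a value that rests on 22 healthy UMIs. Ccl8 was not tested, and its 38 UMIs in EAE ROS- microglia, against 0 of 5133129 UMIs in healthy, put it at least 12.2-fold higher with a floor of 3 counts over the healthy group. Nearly all of that came from replicate 1, and replicate 2 alone gave at least 1.36-fold. Without healthy replicate 1, which holds most healthy UMIs, the Ccl2 difference was 4.84 on the log2 scale (adjusted p = 2.1e-10) and the healthy group held no Ccl7. Without healthy replicate 2, the library with the endothelial UMIs, the differences were 3.21 for Ccl2, 5.05 for Ccl7 and 2.00 for Ccl12, and all 3 were still called. The summed microglial markers were also lower in these EAE cells, at 13015 and 12994 CPM against 23838 and 27425 CPM, and the monocyte list was higher, at 847 and 953 CPM against 59.2 and 53.5 CPM. Their part in the chemokine values was not tested.

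Counted per cell, more microglia carried each message. To compare depths, each cell was thinned to 1000 UMIs, which left out 53 and 6 shallower healthy cells. Ccl2 was then found in 6.13% and 2.89% of healthy microglia, in 49.7% and 60.3% of EAE ROS- and in 51.9% and 75% of EAE ROS+ microglia. Before thinning the shares were 12.2% and 10.1% in healthy and 83.8% and 87.2% in EAE ROS-. Ccl12 was found in 16.1% and 20.8% of thinned healthy microglia against 56.3% and 59.8% in EAE ROS-. At 1000 UMIs per cell, a minority of healthy microglia and most EAE ROS- microglia thus had a Ccl12 UMI. Before thinning, Ccl12 was found in 28.5% and 50.3% of healthy microglia, so the healthy share depends on depth. At least 1 of the 4 chemokines was seen in 20.3% and 23.1% of healthy, 75.3% and 81.6% of EAE ROS- and 66.7% and 80.0% of EAE ROS+ microglia.

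Some microglia carried very large numbers of these molecules. Cells with 10 or more Ccl12 UMIs were 177 of 519 and 88 of 234 EAE ROS- microglia, and 51 of 1749 and 2 of 179 healthy ones. The highest single cell, in EAE ROS+ replicate 1, held 152 Ccl12 UMIs. For Ccl2 such cells were 135 of 519 and 72 of 234 in EAE ROS-, and 18 of 1749 and 0 of 179 in healthy microglia. These counts are unthinned, and healthy cells were shallower (median 2179 and 3484 UMIs, against 6560 and 4759 in EAE ROS-).

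Ccl2 and Ccl12 were often in the same microglia. In thinned EAE ROS- microglia, 64.0% and 64.5% of cells with Ccl2 also had Ccl12, against 48.7% and 52.7% of cells without Ccl2. In healthy replicate 1 the shares were 32.7% and 15%, and in replicate 2, with 5 Ccl2 cells, 20% and 20.8%. Ccl7 was found in 9.69% and 13.5% of EAE ROS- microglia with Ccl2, against 3.45% and 7.53% of those without. In these libraries except healthy replicate 2 the cells with Ccl2 had the higher share, by value and without a test, since cells are not replicates.

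Among the genes that act with these chemokines, the inducers in microglia moved in both directions. Of 4 inducing cytokines tested between EAE ROS- and healthy microglia, Il1b, the interleukin-1 beta gene, rose (3.32 ± 0.28 on the log2 scale, adjusted p = 8.0e-09) and Il6 fell (-1.67 ± 0.49, adjusted p = 0.0139). Among the transcription factors, Jun, Rel and Nfkbiz were called lower. Both tested proteases of the group known to trim such chemokines rose, Mmp14 by 2.00 ± 0.28 and Mmp2 by 1.25 ± 0.45, where 16% of all genes tested were called higher. The median difference over the 7 cytokine receptors tested was -0.12, with Ifngr1 and Tnfrsf1b lower and none higher. Ccr2 itself was at 12.7 and 9.52 CPM in EAE ROS- microglia and 3.17 and 0 CPM in healthy ones (adjusted p = 0.00523). It belongs to the monocyte marker list that helped define the classes. Of 16 tested genes that respond to tissue dissociation, 14 fell in EAE ROS- microglia and none rose (median -1.62), where 12.4% of all genes tested were called lower, with Jun at -2.34 ± 0.27 and Fos at -1.47 ± 0.25. These lower values went with higher Ccl2, Ccl7 and Ccl12, and their relation was not tested.

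**Figure D2:**
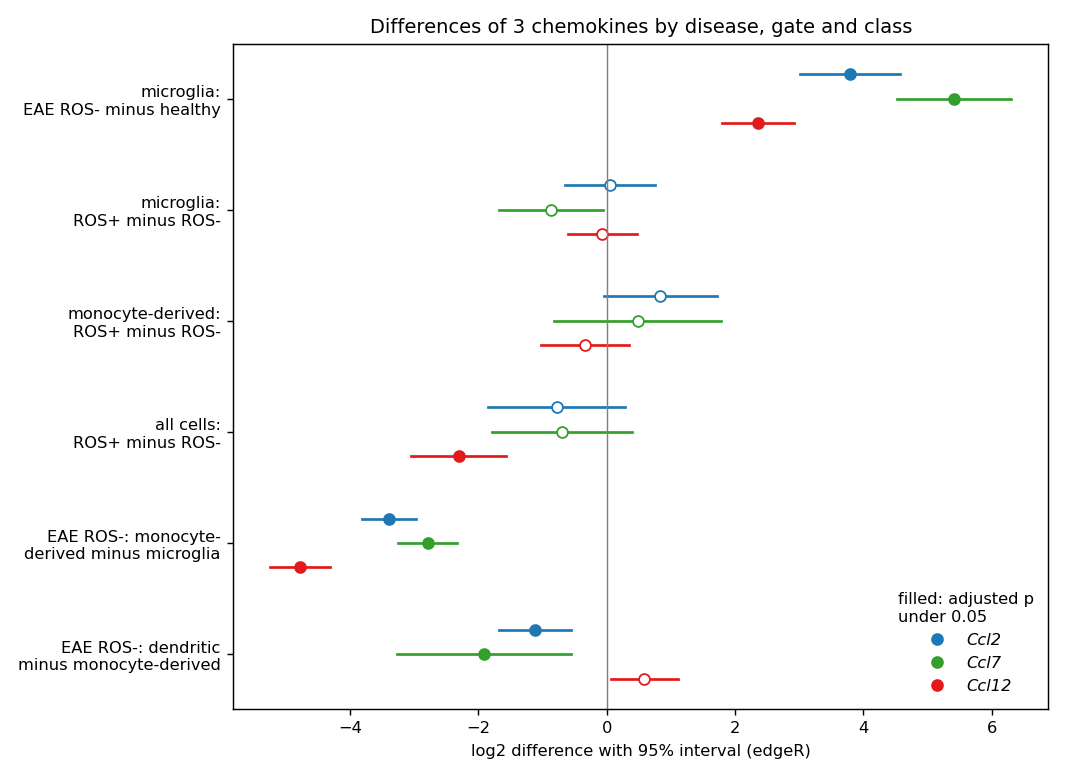
Log2 differences of Ccl2, Ccl7 and Ccl12 with 95% intervals from edgeR in 6 comparisons; filled points passed the adjusted threshold of 0.05. All 3 lie right of 0 for EAE ROS- minus healthy microglia and left of 0 for monocyte-derived cells minus microglia, and Ccl12 alone is filled for the gates over all cells.

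Between the ROS gates, microglia gave no call for any chemokine, and 4 of 8587 genes (0.0466%) were called at all. The EAE ROS+ minus EAE ROS- difference of Ccl2 was 0.05 ± 0.34 on the log2 scale (95% interval -0.66 to 0.75, edgeR adjusted p = 0.995). For Ccl12 it was -0.07 ± 0.26 (-0.61 to 0.46, adjusted p = 0.991) and for Ccl7 -0.87 ± 0.39 (-1.68 to -0.05, adjusted p = 0.818). Only 27 and 20 ROS+ microglia stood behind these values, so these intervals are wide and do not show equal levels.

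Monocyte-derived cells of EAE ROS- carried much less Ccl2, Ccl7 and Ccl12 than microglia of the same libraries. In EAE ROS- monocyte-derived cells Ccl2 stood at 97.0 and 121 CPM, 9.59% and 7.53% of the level in microglia of the same library. Ccl12 stood at 74.9 and 39.2 CPM, or 5.22% and 1.99%, and Ccl7 at 19.9 and 19.0 CPM. The classes did not overlap for these members in EAE ROS-. In EAE ROS+ replicate 2, Ccl7 was at 43.5 CPM in monocyte-derived cells and 46.2 CPM in microglia, the latter from 6 UMIs. With the library as a block, Ccl12 was 27.5-fold lower in monocyte-derived cells than in microglia (-4.78 ± 0.23, edgeR adjusted p = 2.6e-37). Ccl2 was 10.5-fold lower (-3.40 ± 0.21, adjusted p = 4.9e-29) and Ccl7 6.92-fold lower (-2.79 ± 0.23, adjusted p = 1.2e-20). Thus 3 of 4 members were called lower, where 21.1% of 10925 genes were. Ccl8 was at 4.10 and 0.837 CPM and was not called (-0.90 ± 0.65, adjusted p = 0.290). The very small p-values rest on a spread shared across genes, and with DESeq2 the Ccl7 call was lost (-2.85, adjusted p = 0.0895).

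Droplets also catch free RNA from other cells, so Ccl2, Ccl7 and Ccl12 in monocyte-derived cells were set beside the microglial markers there. The microglial marker list in monocyte-derived cells stood at 7.69% and 4.29% of its microglial level in EAE ROS- and 6.76% and 5.50% in EAE ROS+, a share that the class limits also cap. Ccl12, at 5.22%, 1.99%, 3.09% and 2.45% in the same order, was below that share in all 4 libraries. In EAE ROS-, where dendritic cells could be summed, it was also below its level in them (93.2 and 76.4 CPM). Summed over the class, Ccl12 was thus above neither value. Neither of them measures free RNA, since the class limits bound the first and the second is the level of another class. Some monocyte-derived cells held more, since 3 and 3 cells in EAE ROS- and 15 and 9 in EAE ROS+ had 10 or more Ccl12 UMIs, up to 53. After thinning, 8.96% of monocyte-derived cells with Ccl2 in EAE ROS+ replicate 2 had Ccl12, against 2.19% of those without, and in the other 3 libraries 9.62%, 4.11% and 7.14% against 6.60%, 3.38% and 3.11%. The source of the Ccl12 in these cells was not tested. Ccl2, at 9.59%, 7.53%, 12% and 15.1%, was above that share in all 4 libraries. Its monocyte-derived level was also above the dendritic one, at 61.0 and 43.6 CPM. Ccl7, at 17.3%, 9.64%, 10.6% and 94.2% in the same order, was above the marker share in all 4 libraries, the last against 6 microglial UMIs. The source of this Ccl2 and Ccl7 was not tested either.

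Ccl2 was found in a minority of monocyte-derived cells, a share that depends on depth and on its low level. After thinning, 8.09% and 7.37% of EAE ROS- and 7.33% and 16.3% of EAE ROS+ monocyte-derived cells had a Ccl2 UMI, against 4.44% and 1.3% of dendritic cells. Before thinning these shares were 40.7%, 28.8%, 36.1% and 39.8%, against 31.1% and 7.79%, at median depths of 5424 to 9475 UMIs for monocyte-derived and 6313 and 5588 for dendritic cells. Monocyte-derived cells with 10 or more Ccl2 UMIs were 5 of 643 and 22 of 991 in EAE ROS-, and 56 of 1528 and 114 of 2125 in EAE ROS+. The most loaded held 88 Ccl2 UMIs, a count in the range of microglia (up to 98). Cells with Ccl2 were also richer in Ccl7: in EAE ROS+ replicate 2, 8.38% of thinned monocyte-derived cells with Ccl2 had Ccl7, against 1.57% of those without. In the other 3 libraries the shares were 5.77%, 5.48% and 4.46% against 0.677%, 0.654% and 0.424%.

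The relative amount of Ccl2 and Ccl12 set monocyte-derived cells apart from microglia within each EAE library. Of the summed Ccl2 and Ccl12 UMIs in EAE ROS- microglia, Ccl2 made up 41.3% (exact 95% binomial interval 40.3 to 42.3) and 45.0%, and in EAE ROS+ microglia 40.3% and 49.7%. In monocyte-derived cells Ccl2 made up 56.4% (53.1 to 59.7) and 75.6% in EAE ROS-, and 72.3% and 85.9% (84.9 to 86.9) in EAE ROS+. Healthy microglia were the lowest, at 25.0% and 14.7%. Within every EAE library the share was higher in monocyte-derived cells than in microglia. Cells with both marker sets, at 40.2% to 48.0%, were near the microglia. Dendritic cells stood at 39.6% (25.8 to 54.7) and 36.4% (23.8 to 50.4), from few UMIs. In EAE ROS- replicate 1 their interval overlapped that of monocyte-derived cells as well as that of microglia. The intervals cover counting error only.

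**Figure D3:**
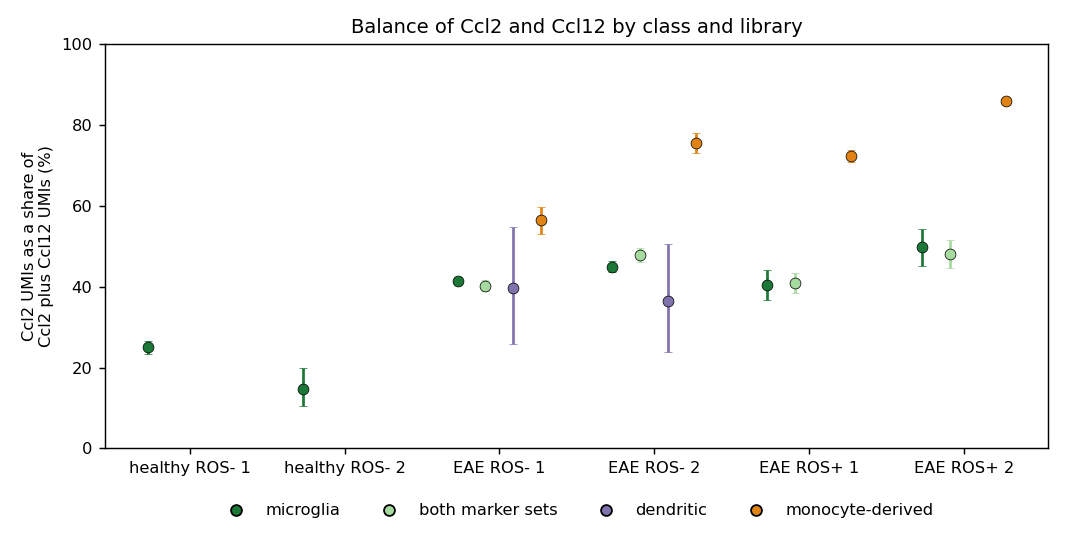
Ccl2 as a percentage of summed Ccl2 and Ccl12 UMIs by class and library, with exact 95% binomial intervals for counting error. Healthy microglia sit at 14.7% and 25.0%, EAE microglia between 40.3% and 49.7%, and monocyte-derived cells between 56.4% and 85.9%.

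Between the gates, the level of Ccl2 in monocyte-derived cells was uneven. EAE ROS+ replicate 2 stood at 272 CPM, and EAE ROS+ replicate 1, at 116 CPM, lay between the EAE ROS- libraries (97.0 and 121). The groups overlapped, and means were 109 ± 17.2 CPM in ROS- and 194 ± 111 in ROS+ (SD, n = 2 each). The difference was 0.84 ± 0.37 on the log2 scale (95% interval -0.05 to 1.72, edgeR adjusted p = 1, unadjusted p = 0.0606). Ccl7 showed the same unevenness, with 10.9 and 43.5 CPM in ROS+ (0.48 ± 0.55, not called), and Ccl12 stood at 44.2 and 44.6 CPM (-0.34 ± 0.29, not called). Of 11763 genes, 0 (0%) were called by edgeR, with 480 at an unadjusted p under 0.05 and 22 called by DESeq2. Without EAE ROS+ replicate 1, Ccl2 was called higher in ROS+ (1.32, adjusted p = 0.00506) and so was Ccl7 (1.16, adjusted p = 0.00991). Without replicate 2 the Ccl2 difference was 0.14 (adjusted p = 0.979). Neutrophil markers within monocyte-derived cells were at 108 and 173 CPM in ROS- and 254 and 379 CPM in ROS+, and their part in this was not tested.

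The gate effect was also compared between the classes. As monocyte-derived minus microglia, the difference of the ROS+ effect was 0.83 ± 0.28 for Ccl2 (edgeR adjusted p = 0.386), 1.08 ± 0.40 for Ccl7 (adjusted p = 0.497) and -0.07 ± 0.29 for Ccl12 (adjusted p = 0.989). No member was called, among 16 genes called of 10925 (0.146%). Ccl7 was called without EAE ROS+ replicate 1 (3.20, adjusted p = 9.6e-06) and stood at -0.25 (adjusted p = 0.987) without replicate 2.

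Dendritic cells of EAE ROS- had less Ccl2 and Ccl7 than microglia and monocyte-derived cells. Ccl2 was at 61.0 and 43.6 CPM (19 and 20 UMIs) and Ccl7 at 12.9 CPM (4 UMIs) and 0, which allows up to 6.55 CPM. Against microglia, Ccl2 (-4.51 ± 0.27), Ccl7 (-4.71 ± 0.51) and Ccl12 (-4.20 ± 0.26) were each called lower by edgeR, where 13.3% of genes were. Against monocyte-derived cells Ccl2 was lower (-1.12 ± 0.28, adjusted p = 0.00176) and so was Ccl7 (-1.92 ± 0.68, adjusted p = 0.0486), where 6.22% of genes were called lower. Both of these calls were lost without EAE ROS- replicate 2 (-0.77, adjusted p = 0.571, and -0.73, adjusted p = 0.929). Ccl12 was not called (0.59 ± 0.27, adjusted p = 0.163). In cells with T or NK markers Ccl2 stood at 550 and 191 CPM, but these few cells (44 and 36) also held the microglial markers at 5168 and 2398 CPM.

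Receptor and ligand messages were split between the classes. Ccr2, a marker used to define monocyte-derived cells, stood there at 331 and 250 CPM in EAE ROS- and 263 and 432 CPM in EAE ROS+, so its difference from microglia is given without weight. Ccr1, which also binds Ccl7 and was in no marker list, was 3.26 ± 0.23 higher on the log2 scale in monocyte-derived cells than in microglia and was called by edgeR, where 16.5% of genes were called higher. Ccr8, the receptor of mouse Ccl8, did not exceed 0.42 CPM in any library. Of 4 inducers tested, Il1b (3.27 ± 0.21) and Il6 (2.53 ± 0.32) were higher in monocyte-derived cells, and Tnf was lower (-1.03 ± 0.20). Of 4 chemokine-trimming proteases, Mmp12 (3.86), Dpp4 (2.63) and Mmp14 (1.28) were higher and Mmp2 (-1.43) was lower. Nfkb2, Relb and Rela, subunits of NF-kB, were higher and Jun was lower. Of 16 tested genes that respond to tissue dissociation, 10 were higher in monocyte-derived cells and 3 lower, where 16.5% and 21.1% of genes were. Of 8 tested genes of the cytokine receptor list, 3 were higher and 0 lower. Their relation to the chemokines was not tested. No gene of these lists was called between the gates, within either class. Over all genes, 0 of 11763 were called there in monocyte-derived cells and 4 of 8587 in microglia. The neighbours Ccl11 and Ccl1 had too few UMIs to be tested in either class, and over all cells Ccl11 had UMIs in EAE ROS- replicate 2 only (0.084 CPM). Ccl1 over all cells stood at 37.7 and 13.2 CPM in EAE ROS-, 0.043 and 0.58 CPM in EAE ROS+, and 0.23 and 0 CPM in healthy.

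Over all cells of a library, all 4 members were lower by value in both EAE ROS+ libraries than in either EAE ROS- library, and Ccl12 alone was called. Its level was 641 and 386 CPM in EAE ROS- and 97.7 and 85.3 CPM in EAE ROS+, with no overlap, and 463 and 258 CPM in healthy. The ROS+ minus ROS- difference was -2.31 ± 0.33 on the log2 scale, or 4.96-fold lower (edgeR adjusted p = 0.00837), 1 of 4 members called where 2.04% of genes were called lower. Ccl2 stood at 463 and 385 CPM in ROS- and 141 and 298 CPM in ROS+, also without overlap, and was not called (-0.78 ± 0.47, adjusted p = 0.589). Ccl7, at 58.6 and 50.1 CPM in ROS- and 14.9 and 45.2 CPM in ROS+, was not called either (-0.70 ± 0.48, adjusted p = 0.634). Nor was Ccl8, at 4.63 and 2.60 CPM against 1.28 and 0.582 CPM (-1.73 ± 0.54, adjusted p = 0.197). The microglial marker list moved with Ccl12, at 5923 and 2826 CPM in ROS- and 1099 and 613 CPM in ROS+. T and NK markers were at 129 and 69.2 CPM in ROS- and 2.69 and 3.75 CPM in ROS+, and neutrophil markers at 58.7 and 138 CPM against 728 and 1726 CPM. An alternative chosen after the data were seen left out microglia, cells with both marker sets and cells with endothelial markers. It kept cells with T or NK markers, 44 and 36 in EAE ROS- and 3 and 4 in EAE ROS+. In EAE ROS- these held the microglial markers at 5168 and 2398 CPM. In that alternative Ccl12 was at -0.92 ± 0.38 and no longer called (edgeR adjusted p = 0.741). Ccl2 was then at 0.65 ± 0.36 (adjusted p = 0.844). Without EAE ROS+ replicate 2 the Ccl12 call was also lost (-2.19, adjusted p = 0.0577).

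The class in which the UMIs lay changed with the gate for both main chemokines. Microglia held 56.7% and 44.4% of all Ccl2 UMIs of the EAE ROS- libraries, and monocyte-derived cells 6.82% and 19.0%. In EAE ROS+ the order was reversed, with 8.23% and 5.09% in microglia and 71.0% and 85.8% in monocyte-derived cells. Microglia were 32.2% and 15.3% of EAE ROS- cells, and monocyte-derived cells 87.6% and 95.2% of EAE ROS+ cells. For Ccl12 in EAE ROS-, microglia held 5875 of 10104 and 2486 of 4593 UMIs, and monocyte-derived cells 384 and 281. For Ccl12 in EAE ROS+, microglia held 17.6% and 18% of the UMIs though they were 1.55% and 0.896% of cells. Monocyte-derived cells held 897 and 647 Ccl12 UMIs there, and cells with both marker sets 905 and 423. Cells with both marker sets held 30.8% and 33.4% of Ccl2 in EAE ROS- and 19.0% and 8.48% in EAE ROS+.

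**Figure D4:**
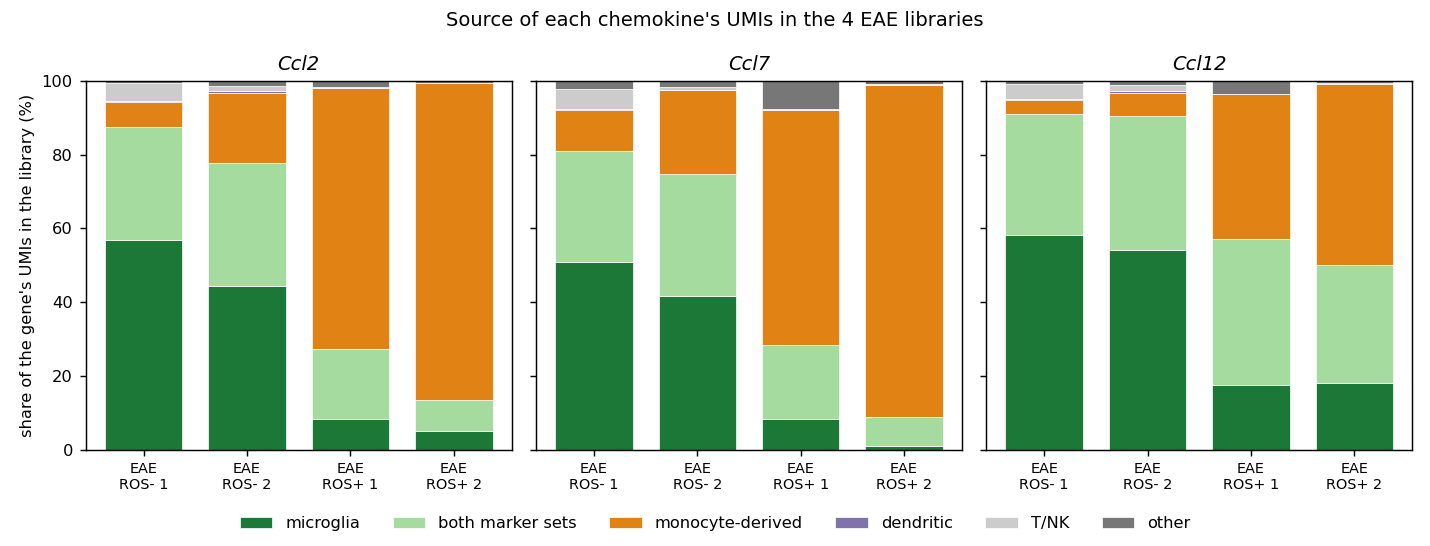
Percentage of each EAE library's Ccl2, Ccl7 and Ccl12 UMIs found in each cell class; bars of a library sum to 100%. In EAE ROS+ most Ccl2 UMIs (71.0% and 85.8%) lie in monocyte-derived cells, and in EAE ROS- the largest part (56.7% and 44.4%) lies in microglia.

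Against healthy cord, over all cells, Ccl2, Ccl7 and Ccl12 were each called higher in EAE ROS-, where 19.9% of 13631 genes were. Ccl8 was called too. Having no healthy UMI, it passed the low-count filter through EAE libraries alone, so its call is given without weight. Ccl2 rose from 154 and 44.8 CPM in healthy to 463 and 385 CPM (2.51 ± 0.51 on the log2 scale, edgeR adjusted p = 0.00505). Ccl7 rose from 4.96 and 0 CPM to 58.6 and 50.1 CPM (4.32 ± 0.68, adjusted p = 0.00154). Ccl12 rose least (0.98 ± 0.32, adjusted p = 0.0398), and this call was lost without healthy replicate 2 (0.66, adjusted p = 0.192) and without EAE ROS- replicate 1 (0.64, adjusted p = 0.171). Without healthy replicate 1 the Ccl2 difference was 3.71 and the Ccl8 call was lost (adjusted p = 0.116). Ccl8 had 73 and 31 UMIs in EAE ROS- and 0 of 5347151 in healthy, at least 6.70-fold higher with a floor of 3 counts over the healthy group (adjusted p = 0.00592). The mix of classes also differed between these libraries, and within microglia alone Ccl2, Ccl7 and Ccl12 were called higher as well, by 13.8-fold, 42.8-fold and 5.13-fold.

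Ccl8 was the rare member, with 143 UMIs in all 9078 cells. The EAE libraries held 73, 31, 30 and 9 of them and the healthy libraries none. Cells with 3 or more Ccl8 UMIs, a limit set after the values were seen, numbered 16 and held 92 of the 143. They were 6 microglia, all from EAE ROS- replicate 1, 6 monocyte-derived cells, 2 with both marker sets and 2 unassigned, 1 of which held 16 UMIs. Of these 16 cells, 14 had Ccl12, 12 had Ccl2 and 7 had Ccl7, without thinning. Over all cells of an EAE library, Ccl12 was found in 15.9% to 63.1%, Ccl2 in 38.2% to 61.0% and Ccl7 in 8.19% to 17.5%. In microglia of EAE ROS- replicate 1, Ccl2 was found in 83.8%. These counts therefore do not show that Ccl8 went with the other members. Markers of border macrophages, which line the meninges and vessels, gave 6 UMIs in 4 of the 16 cells. Over all cells that list gave 818 UMIs of Pf4, 129 of Mrc1, 26 of Cbr2, 4 of Cd163 and 1 of Lyve1, or 6.54 and 8.32 CPM in EAE ROS- and 19.8 and 19.7 CPM in EAE ROS+. Fibroblast genes were at or near 0 (Col1a1 0, Dcn 2 UMIs), and the 3 mast cell genes were at 0.

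Within a class, cells were also set side by side by single state genes, each cell thinned to 1000 UMIs. Microglia with a UMI of Cxcl10, an interferon-induced chemokine, held more Ccl12. In EAE ROS- replicates 1 and 2 it stood at 2255 and 2703 CPM in 149 and 64 cells with Cxcl10, against 1297 and 1841 CPM in those without. In healthy replicate 1 the 28 cells with Cxcl10 had Ccl12 at 2857 CPM, 9.73 times the 294 CPM of the other 1668. Ccl2 was higher in the same cells, by 2.12 and 1.31 times in EAE ROS- and 2.77 times in healthy replicate 1 (8 UMIs).

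Dividing microglia, marked by Top2a, had Ccl12 at 2800 and 3435 CPM in 25 and 23 EAE ROS- cells, against 1510 and 1929 CPM in the rest. Ccl2 in them was 960 and 1870 CPM against 1081 and 1564 CPM, so of these members only Ccl12 was higher in both libraries. In healthy replicate 1, the 253 microglia with Fosb, a gene induced by dissociation, held Ccl12 at 735 against 266 CPM and Ccl2 at 221 against 85.9 CPM. In EAE ROS- replicate 1 Ccl12 was at 1517 CPM in the 29 microglia with Fosb and 1576 CPM in those without, and Ccl2 at 1862 and 1029 CPM.

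Among monocyte-derived cells, those with the interferon-induced gene Ifit3 had more Ccl2. In the 3 libraries with enough such cells and UMIs it stood at 208 (EAE ROS- replicate 2), 341 and 578 CPM (EAE ROS+), against 103, 126 and 297 CPM without Ifit3. In EAE ROS- replicate 1 the 21 cells with Ifit3 held 2 Ccl2 UMIs, or 95.2 CPM, against 88.4 CPM without. Cells with the antigen-presentation gene H2-Aa had less Ccl2, at 87.8, 123 and 236 CPM against 234, 339 and 478 CPM in the same 3 libraries. In EAE ROS+ replicate 2, Ccl7 was at 173 CPM in cells with Ifit3 and 35.3 CPM without. For Arg1, a gene of wound-type macrophages that is also in the monocyte list, the ratio of Ccl2 with to without it was 1.24 and 1.85 in EAE ROS- and 0.528 and 0.817 in EAE ROS+. These contrasts are between cells of 1 library and carry no test.

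**Figure D5:**
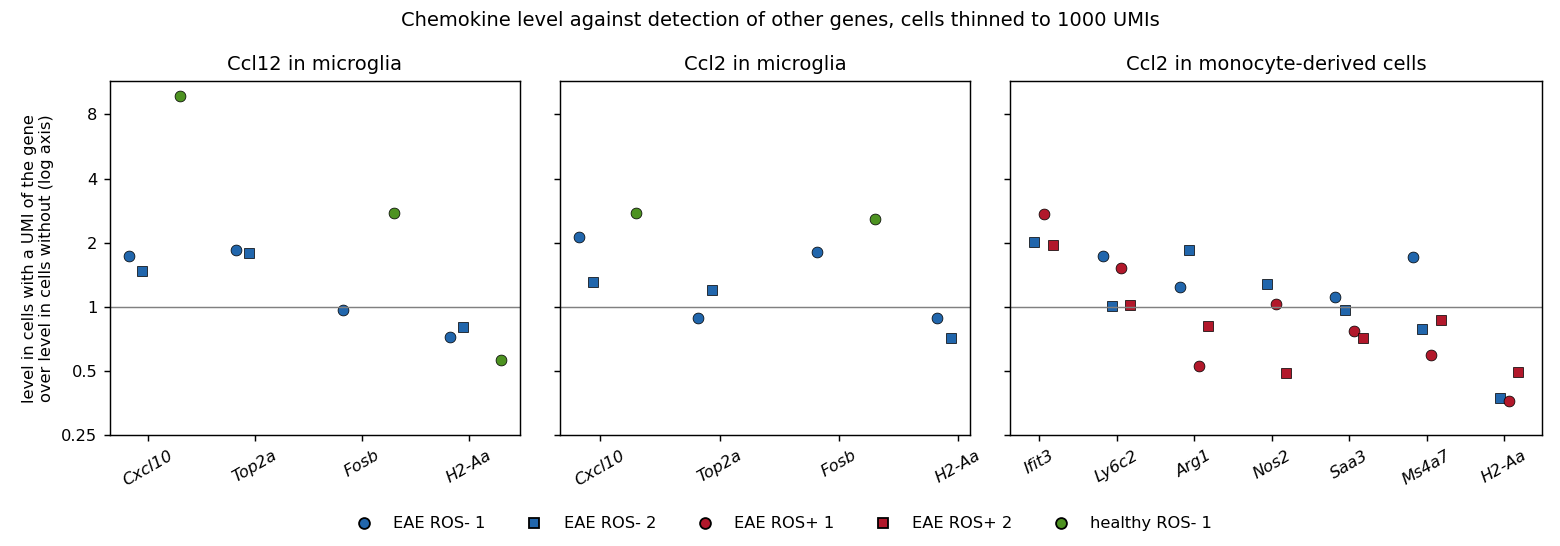
Ratio (log axis) of a chemokine's level in cells with a UMI of a state gene to its level in cells without, for Ccl12 and Ccl2 in microglia and Ccl2 in monocyte-derived cells; points are libraries, with cells thinned to 1000 UMIs. Ccl12 with Cxcl10 lies above 1 in the 3 libraries plotted, up to 9.73, and Ccl2 in monocyte-derived cells with H2-Aa lies below 1 in all 3.

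Across the 12 sums of a class in a library, among 11151 genes, the patterns most like each member were described by Pearson's r of log2(CPM + 10). For Ccl12 they were Phgdh (0.986), the serine synthesis enzyme, Fam176a (0.983), Vault (0.980), Npnt (0.977) and Gm11223 (0.973). Cotl1 (0.978), Mcm6 (0.950), Niacr1 (0.943), Naa20 (0.940) and Rspo1 (0.932) came nearest to Ccl2. Those of Ccl7 were Gpx3 (0.934), Lgals3bp (0.918), Gars (0.913), C4b (0.912) and Bag1 (0.906). Ccl8, with few UMIs, reached 0.732 at most, with Commd4. Between members r was 0.897 for Ccl2 and Ccl7, 0.810 for Ccl2 and Ccl12 and 0.631 for Ccl7 and Ccl12. These sums share libraries and fall into 3 classes, and r is a description only. Over the 10 EAE sums alone 1 of the 5 nearest genes was kept for Ccl2 and for Ccl12, and 0 for Ccl7 and Ccl8.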

How the data were processed

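The authors deposited gene-by-cell tables of UMI counts, 1 per library, with no normalization in the values. Libraries were made with the Chromium Single Cell 3' v2 kit, per the labels' protocols, and Cell Ranger 2.0.1, Seurat 3, R 3.4.2 and mm10 are named, without roles, in the submitters' processing notes. A barcode needed 200 or more genes and no more than 10% mitochondrial UMIs, and 1 failed. No doublet caller was run, and cells with both marker sets were set apart instead. Microglia had at least 40 UMIs per 10000 of a 13-gene list and monocyte-derived cells at least 40 of a 16-gene list, each with at most 20 of the other list. Dendritic cells had at least 10 per 10000 and 3 UMIs over 2 markers. Clusters (Leiden, scanpy 1.11.5) served as an alternative. Raw counts were summed per library and class of at least 20 cells and tested with edgeR 4.0.16 (quasi-likelihood test, TMM scaling, low genes dropped by filterByExpr at a count of 10), with Benjamini-Hochberg adjustment over all genes tested. A difference was called at an adjusted p under 0.05. The script was tested on simulated data. Levels are counts per 1000000 UMIs of the class (CPM). DESeq2 1.42.0 was an alternative. The 95% intervals of shares are exact Clopper-Pearson intervals and, like the floor of 3 counts, cover counting error only. Named genes are the 4 members, fixed pathway lists with values for those called, the 5 most alike genes per member and fixed state genes. The members and lists were chosen with earlier results of these data known. Sequences came from the GENCODE M21 transcripts and a RefSeq promoter table. Results on some genes of the pathway lists are not reported here.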

Additional observations from a re-analysis of the deposited data

How the results depend on the processing

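In microglia, EAE ROS- against healthy, Ccl2, Ccl7 and Ccl12 kept their direction and call in all 14 alternatives each, and against dendritic cells in all 10. No direction reversed among results that were called. Among members the calls that changed were these. Over all cells, ROS+ against ROS-, Ccl8 was called without a low-count filter (-1.72, edgeR adjusted p = 0.0230). There Ccl12 lost its call without the microglial, both-marker and endothelial classes (-0.92) and in 1 of 6 fits without a library (range -2.60 to -1.93). EAE ROS- against healthy, over all cells, Ccl12 lost its call in the fit of only 2 groups (0.95, adjusted p = 0.0566), and without a library it ranged from 0.64 to 1.46 and Ccl8 from 7.84 to 8.72, a fitted value against 0 counts. Monocyte-derived Ccl2 was called higher in ROS+ without a low-count filter (0.87, adjusted p = 0.0371), and without a library ranged from 0.14 to 1.32 and Ccl7 from -0.77 to 1.16. Against microglia, monocyte-derived Ccl7 lost its call with DESeq2 (-2.85). Dendritic against monocyte-derived Ccl7 lost it with RLE scaling (-1.86, adjusted p = 0.0618), DESeq2 (-1.89, adjusted p = 0.592) and clusters (-1.21, adjusted p = 0.104). Without a library it ranged from -9.91, with 0 dendritic UMIs, to -0.73, and Ccl2 from -1.45 to -0.77. The gate effect of Ccl7 between classes ranged from -0.25 to 3.20. The cause of these changes was not tested.

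Counts of called genes moved more. Over all cells, ROS+ against ROS-, 295 became 1006 without the low-count filter, 153 with only 2 groups, 72 without microglial-marker cells and 123 to 632 without a library. Without a library, the all-cell disease count ranged from 2364 to 4295 (4629 in full). The microglial disease count of 2440 became 1624 with DESeq2 and 1477 to 2726 without a library. The microglial gate count of 4 became 25 without the filter, 0 with clusters, 0 with only 2 groups and 2 to 40 without a library. The monocyte-derived gate count of 0 became 112 without the filter, 22 with DESeq2, 1 with clusters and 4 to 154 without a library. Monocyte-derived against microglia gave 4114, or 2531 with DESeq2 and 2274 to 4359 without a library. Dendritic against monocyte-derived gave 1328 (649 higher, 679 lower), or 761 with DESeq2 (461 and 300) and 499 to 1508 without a library. Dendritic against microglia gave 2803 (1353 higher, 1450 lower), with DESeq2 1196 higher and 787 lower, and 1202 to 2985 without a library. The gate difference between classes gave 16 (4 higher, 12 lower), or 31 with RLE scaling (3 and 28), 0 with DESeq2, 0 with clusters and 6 to 33 without a library.

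The gates share replicate numbers, but no label says that a number pairs libraries, and with 2 pairs the deviations of same-numbered libraries correlated at 0.42. With a replicate block the all-cell gate count was 596 (Ccl12 -2.27, adjusted p = 0.000476), the microglial one 15 and the monocyte-derived one 41, and no member's call changed. Stricter marker limits left under 20 ROS+ microglia, so that alternative was not run for the microglial gate comparison or the difference between classes. Depth limits Ccl7 and Ccl8 most: Ccl8 rests on 143 UMIs.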
